A study of Sus scrofa with 21 samples.

Results

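The smooth muscle contractile genes were described in the distal small intestine of 21 pigs (Sus scrofa, Danish Landrace/Yorkshire cross) aged 24 to 25 days. The set names 10 genes, ACTG2, MYH11, DES, CNN1, SYNM, LMOD1, ACTA2, TAGLN, SMTN and MYLK, and members were found by the Ensembl pig gene name of each gene identifier. The name table matched 9 of the 10 to a gene in the files, out of 18661 genes in all. SYNM, the intermediate filament protein synemin, was not matched and was not analysed here. Control piglets (n = 10) were fed a milk replacer, and starch piglets (n = 11) that replacer with wheat added. All animals were on milk replacer, and no genotype, sex, litter or batch was given. Whole intestinal tissue was sequenced, and which layers of the gut wall each piece held was not stated.

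The wall of the small intestine carries an inner circular and an outer longitudinal layer of smooth muscle, with a thin muscle sheet beneath the mucosa and more muscle in the walls of arteries. Smooth muscle shortens when filaments of smooth muscle myosin pull on actin filaments. A rise in calcium activates myosin light chain kinase, which phosphorylates the regulatory light chain and switches the myosin on. Desmin filaments and anchoring proteins tie the actin filaments to dense bodies and to the cell membrane, so that the force passes from cell to cell.

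Each library held between 6719264 and 8610458 expected counts (estimated read counts that need not be whole). Levels within a gene are given as CPM, counts scaled to library size and composition, and levels between genes as FPKM, which also divides by transcript length. Gut muscle genes were abundant in this tissue: ACTG2 had the rank 17 of 18661 genes by mean FPKM, and 7 of the 9 members were among the top 213. Control 5, control 8 and starch 3 stood apart from the rest in the enterocyte gene VIL1 (villin), which read 162, 181 and 171 CPM in them and 724 CPM or more in each of the other 18 piglets. These 3 were also high in muscle genes, so results are given with and without them. They were not alone in this: averaged over the members, starch 4, with 1168 CPM of VIL1, was above control 5. In bulk tissue, fewer muscle cells in a piece and less RNA per muscle cell cannot be told apart.

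Per length, the enteric actin ACTG2 was the most abundant member. ACTG2 averaged 5577 FPKM over the 21 piglets, followed by the actin-bundling protein TAGLN (transgelin) at 1699 FPKM. Desmin (DES) averaged 980 FPKM, calponin (CNN1) 886 FPKM and smooth muscle myosin heavy chain (MYH11) 768 FPKM. ACTA2, the smooth muscle actin best known from arteries, averaged 663 FPKM and the kinase gene MYLK 549 FPKM. The actin-binding protein SMTN (smoothelin) and the filament nucleator LMOD1 (leiomodin) were the lowest of the 9, at 92.7 and 59.5 FPKM. The order held in all 21 piglets for ACTG2 above TAGLN, TAGLN above DES, MYLK above SMTN and SMTN above LMOD1. The middle of the order was not fixed: DES exceeded CNN1 in 17 piglets, CNN1 exceeded MYH11 in 11, MYH11 exceeded ACTA2 in 16 and ACTA2 exceeded MYLK in 17. The place of MYLK came from its short transcripts, since those long enough for the full kinase averaged 49.4 FPKM in control and 48.3 in starch piglets, below SMTN and LMOD1. MYLK and SMTN were the only neighbours whose ranges over piglets did not overlap. Of all expected counts, the members together took 1.51% ± 0.97 in control piglets and 1.45% ± 0.56 on starch (SD over 10 and 11 piglets), from 0.759% in starch 10 to 3.75% in control 8.

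The comparison of the diets asked whether added starch altered the muscle genes of the gut. No member passed the test of a difference between the diets. With edgeR's quasi-likelihood test and Benjamini-Hochberg adjustment over 13127 tested genes, 0 genes passed an adjusted p of 0.05 (0% of genes), members included. At an unadjusted p under 0.05 there were 174 genes (1.33% of those tested, 0.404% higher and 0.922% lower on starch) and none of the 9 members. DESeq2 and voom also called 0 genes, with 293 of 18630 and 268 of 13127 genes at an unadjusted p under 0.05. For 0% of tested genes were the CPM ranges of the diets free of overlap, and they overlapped for each of the 9 members.

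Among the filament proteins, ACTG2 (ENSSSCG00000008294) ran from 3056 CPM in control 3 through a median of 3827 to 21373 in control 8, and from 1875 in starch 10 through a median of 6304 to 11966 in starch 3. The starch median was the higher, while the group means, 6128 ± 5747 CPM for control and 6272 ± 3395 CPM for starch (± SD, n = 10 and 11), lay together, and 1 control piglet was above every starch piglet. The log2 fold change, starch minus control, was 0.03 (SE 0.39, 95% interval -0.77 to 0.84, edgeR adjusted p = 0.9998). ACTA2 (ENSSSCG00000010447) spanned 417 CPM in control 1, a median of 671 and 1231 in control 8, against 417 in starch 9, a median of 634 and 1203 in starch 4. The groups covered nearly the same range, and the log2 fold change was 0.03 (SE 0.23, 95% interval -0.44 to 0.50). MYH11 (ENSSSCG00000000146), the motor that pulls on these actins, spanned 2792 CPM in control 2, a median of 3738 and 5886 in control 8, against 2351 in starch 10, a median of 3909 and 5898 in starch 6. Its highest piglets in the 2 groups were level, and its log2 fold change of -0.04 (SE 0.18, 95% interval -0.41 to 0.33) was the only one of the 9 below 0.

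Of the proteins that act on the actin filament, CNN1 (ENSSSCG00000013614), which binds actin and restrains myosin, had a control range of 377 CPM in control 2 to 1985 in control 8 with a median of 484. Its starch range was 299 CPM in starch 10 to 1292 in starch 4 with a median of 866. The lowest piglet was on starch and the highest on control, and the log2 fold change was 0.15 (SE 0.30, 95% interval -0.48 to 0.77). TAGLN (ENSSSCG00000015073) lay between 497 CPM in control 10 and 2828 in control 8 (median 677), and between 429 in starch 10 and 1843 in starch 3 (median 1157). It showed the same arrangement, with control 8 alone above the starch group, and a log2 fold change of 0.17 (SE 0.34, 95% interval -0.53 to 0.87). LMOD1 (ENSSSCG00000031201), which starts new actin filaments, lay between 71.5 CPM in control 1 and 155 in control 8 (median 97.9), and between 62.9 in starch 10 and 152 in starch 6 (median 118). SMTN (ENSSSCG00000010017), found with actin in contractile smooth muscle, lay between 161 CPM in control 1 and 411 in control 8 (median 203), and between 159 in starch 10 and 337 in starch 3 (median 287). Both genes had starch medians above the control medians and overlapping ranges. The log2 fold change was 0.08 for LMOD1 (95% interval -0.29 to 0.45) and 0.12 for SMTN (95% interval -0.26 to 0.50).

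The kinase and the intermediate filament gave the same picture. MYLK (ENSSSCG00000011867) ran from 260 CPM in control 2 through a median of 380 to 857 in control 5, and from 317 in starch 9 through a median of 454 to 698 in starch 6. It was the only member whose highest piglet was control 5, and its log2 fold change was 0.06 (SE 0.20, 95% interval -0.35 to 0.47). DES (ENSSSCG00000020785) ran from 659 CPM in control 2 through a median of 838 to 4117 in control 8, and from 479 in starch 10 through a median of 1485 to 2426 in starch 3. The gap between the medians was wide beside that between the means, 1295 ± 1068 CPM for control and 1370 ± 578 CPM for starch (± SD, n = 10 and 11). The log2 fold change of DES was 0.08 (SE 0.33, 95% interval -0.61 to 0.77).

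**Figure D1:**
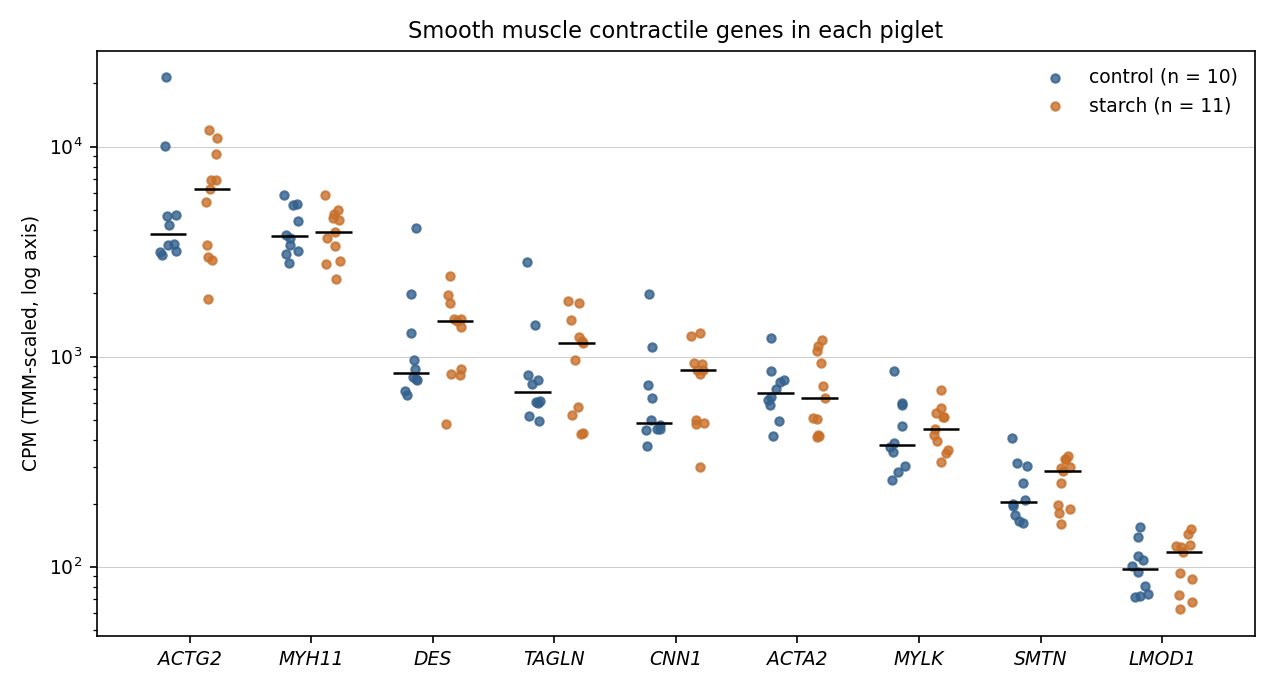
CPM of the 9 smooth muscle genes by diet on a log axis, with 1 point per piglet (control n = 10, starch n = 11) and a bar at each group's median. The groups overlap for every gene, and the highest control point of ACTG2, DES, CNN1 and TAGLN (control 8) lies well above the rest.

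**Figure D2:**
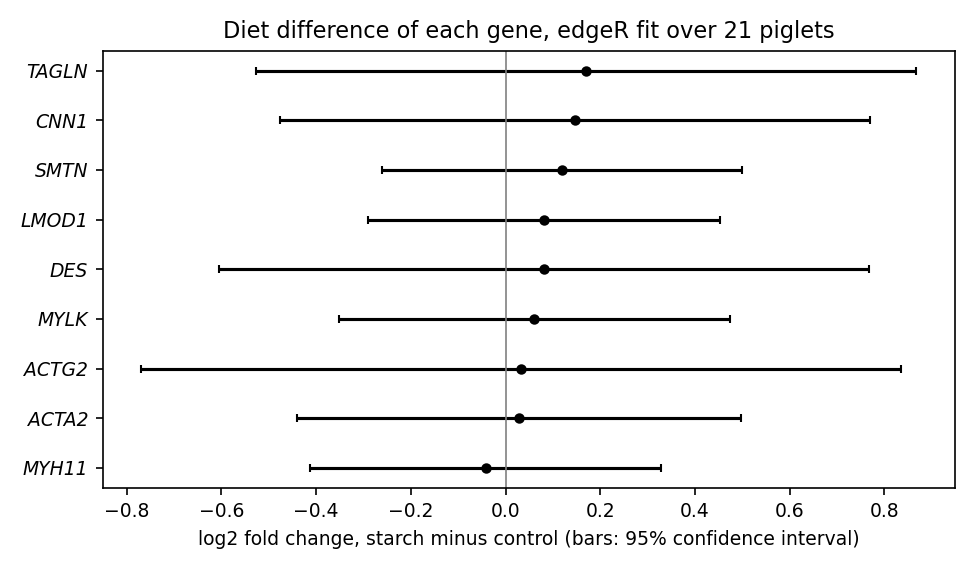
Log2 fold change (starch minus control) of each gene from the edgeR fit over 21 piglets, with 95% confidence intervals as bars. All 9 intervals cross 0, and that of ACTG2, from -0.77 to 0.84, is the widest.

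As a list, 8 of the 9 log2 fold changes were above 0 and 1 below (51.1% and 48.9% of all tested genes were), 7 of 9 under upper-quartile scaling, with ACTG2 at -0.001, and 7 of 9 on FPKM, with ACTA2 at -0.08. The median over the members was 0.08, against 0.004 over all tested genes. A single piglet set much of these values. Without control 8 the log2 fold change was 0.50 for ACTG2, 0.53 for TAGLN, 0.48 for DES, 0.46 for CNN1 and 0.24 for SMTN, and all 9 members were above 0. Without starch 3 it was -0.12 for ACTG2 and -0.05 for DES, and 5 of 9 members were above 0, the fewest when 1 piglet was left out. Without control 5, control 8 and starch 3 it was 0.61 for ACTG2, 0.60 for TAGLN, 0.56 for DES, 0.55 for CNN1, 0.29 for MYLK and 0.06 for MYH11. Voom with sample quality weights, which gives less weight to deviating libraries, gave 0.43 for ACTG2, 0.49 for TAGLN, 0.50 for DES and 0.49 for CNN1. No member passed in any of these fits, with adjusted p-values of at least 0.9997. These values do not show how near a member came. Without the 3 piglets the smallest edgeR adjusted p of any gene was 0.9999, while 382 of 13139 genes had an unadjusted p under 0.05.

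Between piglets the members varied in 2 tiers. ACTG2 had an SD of log2 CPM of 0.87, larger than that of 90.2% of tested genes, and its highest piglet had 11.4 times the CPM of its lowest. TAGLN (SD 0.77), DES (SD 0.75) and CNN1 (SD 0.69) also exceeded at least 80.7% of genes, with ratios of highest to lowest of 6.60, 8.59 and 6.63. The others lay near the median SD of 0.45 over all tested genes: ACTA2 had 0.52, MYLK 0.45, SMTN 0.42, LMOD1 0.41 and MYH11 0.38. By SD, MYH11 had the narrowest spread of the 9 and ACTG2 the widest. By the ratio of highest to lowest, LMOD1 (2.47) was narrower than MYH11 (2.51). Without control 5, control 8 and starch 3 the SD of ACTG2 was 0.66, larger than that of 85.3% of genes, and that of MYH11 0.36, and the same 4 genes were the most variable members.

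The members varied together from piglet to piglet. As a score per piglet, the mean over members of log2 CPM centred on each gene's mean ran from -0.88 in starch 10 to 1.16 in control 8, with group means of -0.06 ± 0.56 for control and 0.06 ± 0.55 for starch (± SD, n = 10 and 11). All 9 members were above their own mean in control 5, control 8, starch 3, starch 4, starch 6 and starch 8. All 9 were below it in control 1, control 3, control 7, starch 2, starch 5, starch 9 and starch 10. High and low piglets thus occurred on both diets. Over the 36 pairs of members, Pearson's r of log2 CPM had a median of 0.82, from 0.49 for ACTA2 with MYLK to 0.99 for DES with CNN1. Without the 3 piglets that stood apart the median was 0.77 and the lowest 0.39. All values of a piglet share its library and scaling.

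**Figure D3:**
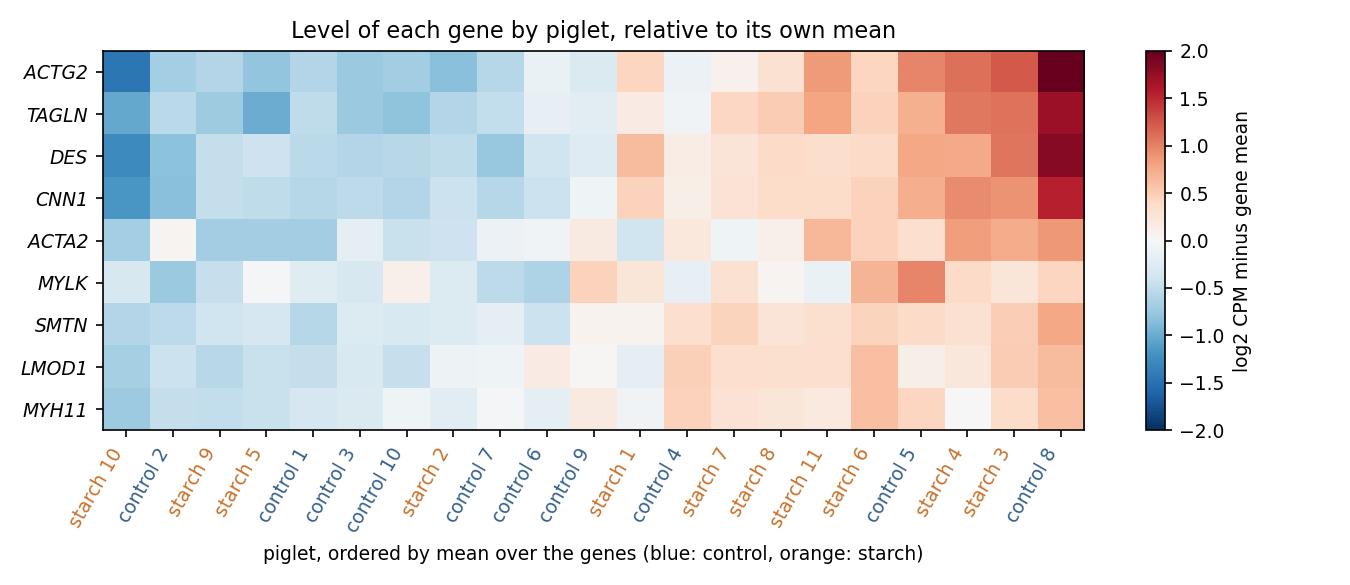
Log2 CPM of each member minus its mean over 21 piglets, with genes in rows ordered by SD and piglets in columns ordered by their mean over the members. Most columns have 1 sign throughout, from starch 10 (all 9 genes below their mean) to control 8 (all 9 above), and the strength fades from the row of ACTG2 to that of MYH11.

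ACTG2 was set against 17 genes, the 8 other members and 9 genes of other cell types or functions, by permutation tests with 100000 resamples (two-sided, adjusted over the 17). All 8 members correlated with it. Pearson's r was 0.98 for TAGLN, 0.97 for CNN1, 0.97 for DES, 0.88 for SMTN and 0.85 for ACTA2, each with a permutation p of 1e-05, the smallest these resamples can give (adjusted p = 3.4e-05). It was 0.80 for LMOD1, 0.78 for MYH11 and 0.64 for MYLK (adjusted permutation p = 5.67e-05, 0.000121 and 0.00355). Spearman's rho lay between 0.63 (MYLK, permutation p = 0.00268) and 0.97 (TAGLN, permutation p = 1e-05). Without starch 3 and control 8, the piglets farthest from the median of ACTG2, r was still between 0.64 and 0.96. Within the control group r lay between 0.64 and 0.995 and within the starch group between 0.66 and 0.98. By r, 7 of 8 passed in each, the exception being MYLK (adjusted permutation p = 0.0648 and 0.0502). By rank SMTN (adjusted permutation p = 0.0578) and MYLK (0.257) did not pass in control piglets. On starch MYH11 and LMOD1 (both 0.0755) and MYLK (0.105) did not pass by rank. Without the 3 piglets that stood apart r lay between 0.55 and 0.96. All 8 passed there by r, and MYLK did not by rank (adjusted permutation p = 0.0542). The share of all tested genes that would pass against ACTG2 was not counted.

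Of the 9 other genes, the neuronal ubiquitin hydrolase UCHL1 correlated with ACTG2 in all 3 sets of piglets, at r = 0.74 over all piglets (rho 0.76, adjusted permutation p = 0.00034 for r), 0.66 without the 2 farthest and 0.62 without the 3 that stood apart. VIL1 had r = -0.65 (adjusted permutation p = 0.00355) but a rho of -0.40 (permutation p = 0.0713), and r was -0.36 without the 2 farthest and 0.02 without the 3. With total-count scaling and on FPKM r was -0.78, and rho passed at -0.59 and -0.60 (adjusted permutation p = 0.00908 and 0.00797). In the main setting the r with VIL1 fell away without the 3 piglets. They were set apart by their low VIL1, so leaving them out also narrows the range of VIL1. The rank correlations in the other 2 settings were not repeated without them. The collagen gene COL1A1 (r = 0.60, adjusted permutation p = 0.00547) and the endothelial gene PECAM1 (r = 0.62, adjusted permutation p = 0.00457) no longer passed by r without the 2 farthest, at 0.43 and 0.39. By rank COL1A1 still passed there (rho 0.53, adjusted permutation p = 0.0366) and PECAM1 did not (rho 0.30, adjusted permutation p = 0.324). EPCAM of the epithelium (r = 0.12), KIT of interstitial pacemaker cells (0.10), RGS5 of pericytes (-0.08), PTPRC of leukocytes (-0.16) and the non-muscle myosin MYH9 (0.06) did not pass over all piglets, with adjusted permutation p-values of at least 0.647. Without the 3 piglets EPCAM passed by r (0.57, adjusted permutation p = 0.0238) and not by rank (rho 0.44, adjusted permutation p = 0.101).

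Ratios within a library do not depend on its scaling. ACTG2 over ACTA2, the enteric against the vascular type of smooth muscle actin, had a mean log2 ratio of FPKM of 2.79 ± 0.60 for control and 2.97 ± 0.43 for starch (± SD, n = 10 and 11), a difference of 0.17 (permutation p = 0.448, adjusted over 2 ratios 0.659). As a plain ratio it ran from 4.30 in starch 10 to 17.0 in control 8. MYH11 over MYH9, smooth muscle against non-muscle myosin, had a mean log2 ratio of 2.91 ± 0.32 in control and 2.99 ± 0.53 in starch piglets, a difference of 0.09 (permutation p = 0.659), and ran from 4.41 in starch 10 to 14.0 in starch 6. Neither ratio differed beyond the spread between piglets. ACTG2 over MYH11 ran from 3.77 in starch 10 to 17.2 in control 8, with 13.4 in starch 4 and 11.3 in starch 3. ACTG2 was the more variable gene (SD of log2 CPM 0.87 against 0.38) and has the shorter coding length (1164 against 5277 bases). The length difference between libraries, described below, was 0.47 in control 8, 0.27 in starch 4, 0.26 in starch 3 and -0.30 in starch 10. Control 5 went the other way, with a ratio of 9.06 at -0.30. The part of length in this ratio was not tested. ACTG2 took 37.9% ± 7.5 of the members' counts in control and 39.5% ± 7.1 in starch piglets (SD, n = 10 and n = 11), from 29.2% in starch 10 to 55.4% in control 8.

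The files list transcripts, which splits MYLK into forms of very different length. The MYLK locus is known to give both the full kinase and, from an internal promoter, telokin, a short protein equal to the kinase's end that is abundant in gut muscle. Transcripts with 429 and 471 coding bases summed to 514 ± 302 FPKM for control and 488 ± 149 for starch (± SD, n = 10 and 11), and those with 5337 to 5946 coding bases to 49.4 ± 27.0 and 48.3 ± 11.0. Whether the short transcripts encode telokin was not examined, since no sequence was used. Short forms exceeded long forms in every piglet, by 5.89 times in starch 5 to 19.6 times in control 8. The short forms followed ACTG2 with r = 0.86 (rho 0.85, permutation p = 1e-05, the smallest the resamples can give, adjusted over the 2 forms 2e-05), and 0.86 without the 2 piglets farthest in ACTG2. The long forms had r = 0.29 (rho 0.25, permutation p = 0.206), and 0.37 without those piglets. The difference between these correlations was not tested. The split also moved with a length difference between the libraries, the median level of genes of short against long coding length. The ratio of short to long forms correlated with it (r = 0.87, rho 0.86, permutation p = 1e-05, adjusted over 3 relations 3e-05; r = 0.83 without the 2 piglets farthest in it), as did the long forms (r = -0.66, rho -0.64, adjusted permutation p = 0.00144; r = -0.67 without those 2). The short forms did not pass (r = 0.06, rho 0.07, adjusted permutation p = 0.807). The part of length in the ratio and in the low r of the long forms with ACTG2 was not tested. Control 5, high in both, had 1216 FPKM of short and 108 of long forms, and control 8, the highest in ACTG2, had 833 and 42.6. This split of MYLK was made after its values were seen.

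**Figure D4:**
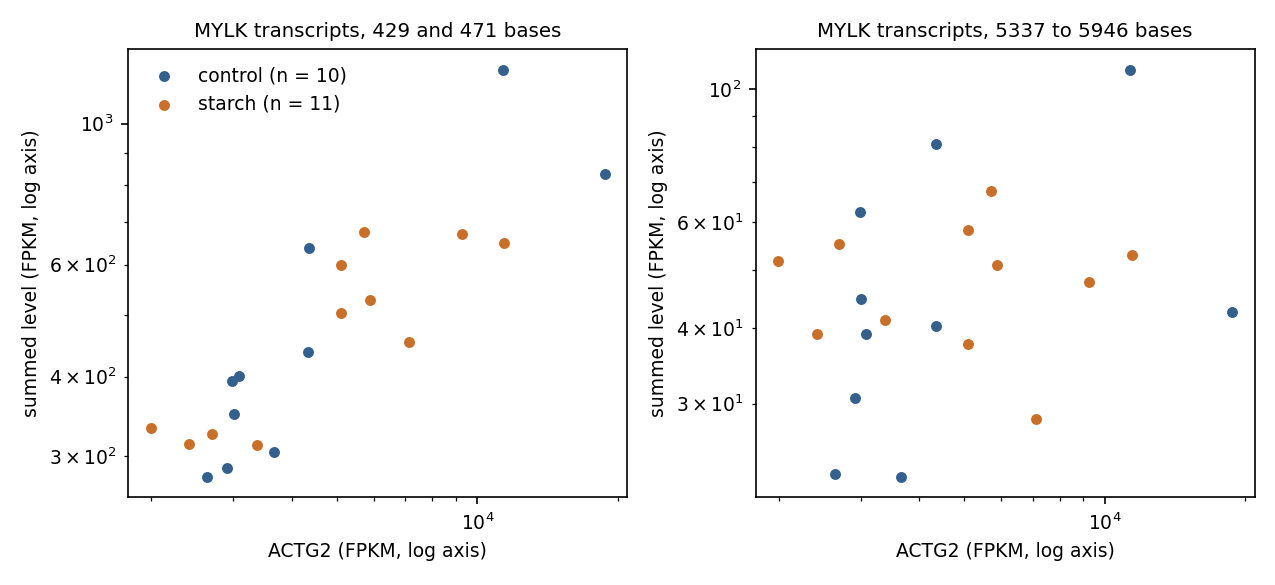
FPKM of the short (429 and 471 coding bases) and long (5337 to 5946 coding bases) MYLK transcripts against FPKM of ACTG2 on log axes, 1 point per piglet, coloured by diet. The short forms rise with ACTG2 (r = 0.86) and the long forms scatter (r = 0.29), with control 5 on top in both.

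Transcript shares of the members were compared for 8 forms chosen after their values were seen, and none passed after adjustment over the 8. The ACTG2 transcript of 1131 coding bases held 49.1% ± 6.44 of the gene's expected counts on control and 41.9% ± 7.34 on starch (± SD, n = 10 and 11), with ranges of 36.8 to 58.6% and 32.5 to 57.5% (permutation p = 0.0294, adjusted 0.118). That of 1173 coding bases held 37.4% ± 5.12 and 43.8% ± 6.09 (ranges 28.7 to 45.1% and 32.2 to 52.2%, permutation p = 0.0186, adjusted 0.118). The starch share was below the control mean in 10 of 11 piglets for the 1131-base form and above it in 9 of 11 for the 1173-base form, while the ranges overlapped. Both passed when control 10 was left out (differences of -8.56 and 7.30 percentage points, adjusted permutation p = 0.0366). They also passed when starch 11 was (-8.75 and 7.59, adjusted permutation p = 0.0184). In the other 19 of the 21 fits that left out 1 piglet, neither form passed. Neither passed on shares of FPKM or without control 5, control 8 and starch 3. Both forms are shares of the same gene's counts, so they are not independent results. The 6 remaining forms, of ACTG2 (1254 bases), MYH11, CNN1, TAGLN, ACTA2 and MYLK, had permutation p-values of at least 0.151. Near-identical transcripts of 1 gene share most reads, and their split is the authors' estimate, as is the split between the actin genes ACTG2, ACTA2, ACTA1 and ACTC1.

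The length difference between libraries moved with several members. The median centred log2 CPM of the tested genes in the shortest quartile of coding length (up to 879 bases) minus that of genes in the longest quartile (from 2223 bases) ranged over piglets from -0.44 in starch 5 to 0.61 in starch 11. It averaged -0.01 ± 0.32 for control and 0.02 ± 0.29 for starch (± SD, n = 10 and 11). This difference correlated with ACTG2 (r = 0.58, rho 0.58, adjusted permutation p = 0.0138 over 9 members), LMOD1 (0.58, rho 0.64, adjusted permutation p = 0.0138), TAGLN (0.63, rho 0.66) and ACTA2 (0.65, rho 0.64), the last 2 with an adjusted permutation p of 0.00936. It did not pass for DES (0.45), CNN1 (0.45), SMTN (0.38), MYH11 (0.33) and MYLK (-0.18). Without the 2 piglets farthest in the length difference no member passed, and ACTG2 had r = 0.42. The length difference was made from tested genes of the same libraries, with TAGLN, SMTN, MYLK and MYH11 in its outer quartiles. How many of all tested genes would pass against it was not counted. The part of length in the spread of the members was not tested. The coding lengths of the 4 members of wide spread, weighted by count, were 650 bases for TAGLN, 934 for CNN1, 1164 for ACTG2 and 1414 for DES. Only TAGLN was within the shortest quartile. CNN1, ACTG2 and DES lay between the quartile limits, as did ACTA2 and LMOD1 of narrow spread. Of the 5 of narrow spread, LMOD1 (1791 bases), SMTN (2733) and MYH11 (5277) were longer. ACTA2 (1132) was about as long as ACTG2, with SDs of log2 CPM of 0.52 and 0.87. MYLK averaged 3210 bases over its short (429 and 471) and long (5337 to 5946) transcripts, none of which is near that length.

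Genes that work with the members were read from lists. Of the genes that control contraction, 16 of 16 were tested, with 6 higher and 10 lower on starch, a median log2 fold change of -0.04 and 0 past the threshold. The myosin phosphatase subunit PPP1R12A had -0.30, its inhibiting kinase ROCK1 -0.19 and tropomyosin 1 (TPM1) 0.18. Of the proteins that anchor filaments, 19 of 22 were tested, with 8 higher, 11 lower, a median of -0.003 and 0 called; LPP, a focal adhesion protein, had -0.38 (unadjusted p = 0.0319), the integrin ITGA8 -0.53, PGM5 -0.15 and PDLIM3 0.19. Of the factors that drive smooth muscle genes, 13 of 14 were tested, with 5 higher, 8 lower, a median of -0.04 and 0 called. PRDM6, a repressor in smooth muscle cells, had -0.65 (unadjusted p = 0.00783), NKX2-3 0.16, SRF, which binds the promoters of many contractile genes, 0.14 and MEIS1 -0.10. Receptors, channels and relaxing enzymes of muscle (16 of 19 tested) had 6 higher, 10 lower, a median of -0.04 and 0 called, among them the endothelin receptor EDNRB (-0.36), the tachykinin receptor TACR2 (0.28), the calcium channel RYR2 (-0.29) and the muscarinic receptor CHRM3 (0.29). The non-muscle counterparts of the members (6 of 8 tested) had 2 higher, 4 lower and a median of -0.06. None of these genes passed edgeR's quasi-likelihood test after Benjamini-Hochberg adjustment.

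The lists differed in how closely they followed the members' score over the 21 piglets, given as a description of correlations that share libraries. The 19 anchoring genes had a median r of 0.76, with 9 above 0.8, among them CSRP1 (0.97), FLNA (0.94) and CRYAB (0.94). The contraction control genes had a median r of 0.44 and split: the light chain MYL9 (0.97), TPM1 (0.95) and TPM2 (0.93) were high, while PRKCA (-0.67) and ROCK2 (-0.59) were negative. Factors and receptors did not follow as lists, with median r of 0.07 and 0.08. Within them MYOCD, the coactivator of SRF, had 0.66 and SRF itself 0.07, and the channel subunit KCNMB1 had 0.90, while the muscarinic receptors CHRM2 (-0.18) and CHRM3 (-0.25) did not rise with the filaments. Without control 5, control 8 and starch 3 the medians were 0.56 for anchoring, 0.34 for contraction control, 0.06 for factors and 0.01 for receptors.

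Markers of other cells moved with the members to differing degrees. The 7 fibroblast genes had a median r of 0.66 with the members' score (0.48 without the 3 piglets) and summed to 5189 to 11483 CPM in control and 4342 to 10632 in starch piglets. The 11 tested genes of enteric neurons and glia, of 15 listed, had a median r of 0.63 (0.47 without the 3) and summed to 78.9 to 192 and 76.8 to 150 CPM. For vascular mural cells (8 of 9 tested; 148 to 341 and 156 to 318 CPM) the median r was 0.36 and for endothelium (6 of 8 tested; 237 to 474 and 243 to 529 CPM) 0.27, and without the 3 piglets 0.09 and 0.02. Interstitial cells (5 of 6 tested, 48.8 to 172 and 57.0 to 114 CPM) had 0.22, epithelium (8 of 10 tested, 4107 to 7508 and 3482 to 8614 CPM) 0.27 (0.48 without the 3) and leukocytes (6 of 7 tested, 134 to 536 and 165 to 795 CPM) 0.004. Most of these lists went both ways. Epithelium ran from VIL1 (-0.62) to KRT8 (0.77), and leukocytes from CD79B of B cells (-0.40) to CD68 of macrophages (0.64). Neurons and glia ran from -0.41 to 0.81, endothelium from -0.51 to 0.70, mural cells from -0.15 to 0.865 and interstitial cells from -0.06 to 0.49. Fibroblast genes were all positive, from 0.27 to 0.86. Of 18 striated muscle genes, 9 were matched and 4 passed the filter (ACTA1, ACTC1, MYH6 and CKM). These 4 summed to 102 to 388 CPM in control and 79.0 to 345 in starch piglets. Their median r was 0.52 (0.55 without the 3). MYH7, MYH1, MYH2, MYH4, MB, TTN, MYL1, MYL2 and RYR1 were not matched and so not measured. The skeletal and cardiac troponins TNNT3, TNNI1 and TNNT2 had at most 6, 1 and 3 counts in any piglet, and TNNI2 at most 58.0. Of 5 mesothelial markers, MSLN, UPK3B and LRRN4 were not matched and so not measured. The 2 matched did not pass the filter (WT1 had at most 10 counts, CALB2 at most 6). No list had a marker at 0 in all piglets among those matched, and the part of these cells in the members' values was not tested. Between the diets, 0 of 5 interstitial, 0 of 8 mural, 0 of 6 endothelial, 1 of 7 fibroblast and 3 of 11 neuronal and glial genes had a log2 fold change above 0, with list medians of -0.22, -0.20, -0.14, -0.06 and -0.08. For epithelium it was 4 of 8 (0.02), for leukocytes 4 of 6 (0.28) and for striated muscle 2 of 4 (0.13), and none of these genes passed the test.

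**Figure D5:**
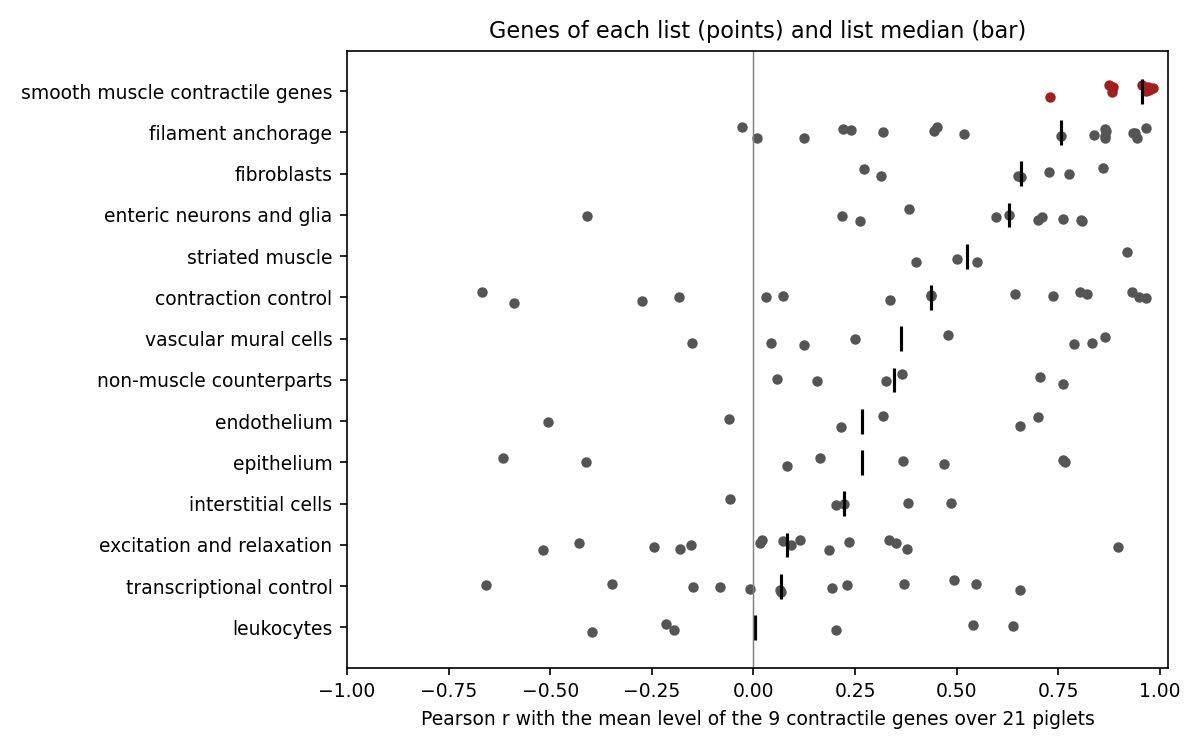
Pearson's r over 21 piglets of each listed gene with the mean centred log2 CPM of the 9 members, 1 point per gene, with a bar at each list's median. The members' own row runs from 0.73 to 0.98, with a score made of the same genes. Of the other lists, anchoring genes have the highest median (0.76) and leukocyte genes the lowest (0.004). The contraction control genes spread from -0.67 to 0.97.

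Among the 13118 tested genes outside the set, whose median r with the score was -0.005, 150 had r above 0.8 (42 without the 3 piglets). The 8 most alike were CSRP1 (r = 0.97), a LIM protein of smooth muscle, the myosin light chain MYL9 (0.97), the tubulin TUBB6 (0.96), TPM1 (0.95), a gene without a matched symbol (ENSSSCG00000037457, 0.95), the actin crosslinker FLNA (0.94), the muscle glycogen phosphorylase PYGM (0.94) and the muscle kinase DMPK (0.94). All 8 had r of at least 0.916 without control 5, control 8 and starch 3. Their levels over piglets ran from 6.10 CPM at the lowest for the unnamed gene to 4919 CPM at the highest for FLNA. Their log2 fold changes between the diets lay between -0.04 (TUBB6) and 0.18 (TPM1), each with an interval across 0.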

How the data were processed

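RNA-seq of 21 piglets (10 control, 11 starch) was used as deposited, with 1 file per piglet and a row per transcript (39105 transcripts, 18661 genes, of which 14276 or 76.5% matched a symbol). Per the file headers, the authors give an expected count, which is not normalised, and an FPKM, which the authors scaled for length and depth. HISAT and DESeq2 are named in the submitters' processing notes, without versions. Counting program, genome build, strand and read length were not given in the sources used here, so no coordinates or sequences are reported. Lengths are coding lengths, as 99.97% are multiples of 3. Some transcripts of a member have equal estimated counts.

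Expected counts were summed per gene and rounded. The test was edgeR 4.0.16 (quasi-likelihood, TMM, filterByExpr with minimum count 10 and total 15, diet only) in R 4.3.3, adjusted by Benjamini-Hochberg at 0.05. The common biological coefficient of variation was 40.3%, and depth was 6719264 to 8610458 counts per piglet. Log2 CPM used a prior count of 2. Permutation tests used 100000 resamples in Python (numpy 2.4.6, scipy 1.17.1), with those of the correlations run in numpy. Alternatives used limma 3.58.1, including log2(FPKM + 0.5), and DESeq2 1.42.0. The test was first tried on simulated data. The correlations with ACTG2 number 17, since SYNM was not matched.

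The members and lists were chosen with earlier results of these data known. All members are named, with up to 4 genes of smallest p of each list described, the correlation genes, and the 8 genes most alike in pattern. A gene that this rule would name is not reported here. Other list genes were named after their correlations with the score were seen. The labels do not pair the replicate numbers.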

Additional observations from a re-analysis of the deposited data

Results flagged for a closer look

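In the control group, 1 piglet lay far from the other 9 in 4 of 13 values checked for a lone extreme (a gap to the next piglet above Dixon's 95% critical share of the range for 10 samples), and it was control 8 each time. ACTG2 read 21373 CPM in it, against 10068 in the next control piglet. DES read 4117 against 1990 CPM, CNN1 1985 against 1110 CPM and TAGLN 2828 against 1415 CPM. All 4 are on the linear CPM scale. On log2 CPM the gap of control 8 over the range was 0.39 for ACTG2, 0.40 for DES, 0.35 for CNN1 and 0.40 for TAGLN, and 0 of the 9 members passed the critical value. Chance marks about 1 in 20 groups in such a check, and these 4 genes are not independent, since they correlate with each other over the piglets. Control 8 was also low in VIL1 (181 CPM).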

How the results depend on the processing

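The count of genes called for diet was 0 in each of the 35 alternatives, with 117 to 524 genes at an unadjusted p under 0.05 against 174. No member passed in any. The labels do not say whether piglets of the same number are paired. Over all tested genes, same-numbered piglets correlated between -0.34 and 0.48, 4 of 10 over 0.1 and 0 of 10 best with their own number. These correlations cannot exclude a pairing, which need not show in the whole profile. With a replicate block 0 genes were called and ACTG2 had 0.09. Some directions turned, and the cause was not tested. ACTG2 was -0.001 with upper-quartile scaling. MYH11 was 0.11 with voom and 0.056 without control 5, control 8 and starch 3. ACTA2 was -0.078 in the 4 FPKM settings, -0.10 with the replicate block and -0.0001 with the epithelium score as a covariate. Leaving out 1 piglet at a time, log2 fold changes ran from -0.12 to 0.50 (ACTG2), -0.11 to 0.031 (MYH11), -0.049 to 0.48 (DES), -0.071 to 0.15 (ACTA2) and -0.013 to 0.21 (MYLK). Differences in transcript share ran, in percentage points, from -8.75 to -6.14 (ACTG2, 1131 bases), 5.46 to 7.59 (1173 bases), -0.82 to 1.48 (CNN1), -0.65 to 2.67 (MYH11) and -2.21 to 0.73 (MYLK). Without the 3 piglets CNN1 had -0.59 and MYLK 0.67, and on FPKM MYLK had 0.046.

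Without the 3 piglets the correlations with ACTG2 that turned or crossed the threshold were VIL1 0.015, EPCAM 0.57 (now past the threshold), COL1A1 0.37, PECAM1 0.17, KIT -0.12 and MYH9 -0.42. Without the 2 farthest they were -0.36 for VIL1, 0.43 for COL1A1, 0.39 for PECAM1, 0.026 for RGS5 and -0.16 for MYH9. In control piglets alone MYLK had 0.64, COL1A1 0.62, EPCAM -0.23, RGS5 0.08 and PTPRC 0.085. In starch piglets alone MYLK had 0.66, VIL1 -0.35, COL1A1 0.62, PECAM1 0.48 and MYH9 -0.17. MYLK had 0.83 on FPKM against 0.64 on CPM. EPCAM was -0.002 on FPKM, and RGS5 0.035 with total-count scaling and 0.026 on FPKM. No alternative varied the depth. The interval of ACTG2 between diets, -0.77 to 0.84, limits what the comparison can show.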
